A study of Mus musculus with 60 samples.

Results

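Granule neurons are the principal excitatory cells of the dentate gyrus, the gateway through which cortical input enters the hippocampus. The 8 genes described here mark the mature granule neuron: Prox1, Dsp, Lct, C1ql2, Tdo2, Trpc6, Stxbp6 and Dock10. They were taken by name from the table of expression values, which holds 24508 genes, and 8 of the 8 were present. Earlier results of these data were known when the 8 were chosen. Expression was measured by RNA-seq of whole hippocampus from 9 wild-type (WT) and 9 R6/1 samples, in RPKM (reads per kilobase of gene, scaled for sequencing depth). All mice were 30 weeks old, on a background of CBA and C57BL/6 in equal parts. R6/1 is a transgenic line that models Huntington's disease: it expresses exon 1 of human huntingtin with a long CAG repeat, under the human gene's own promoter, in addition to the mouse's own intact Htt genes. The labels describe the RNA samples as independent biological replicates and do not give the sex of the mice or whether a sample was 1 animal.

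Each granule neuron sends an axon, the mossy fibre, to the pyramidal neurons of area CA3. Its identity is held by Prox1, a homeobox transcription factor that granule neurons need throughout life and that keeps them from taking on a pyramidal fate. The other genes belong to what the mature cell is built from. C1ql2 is a secreted C1q-domain protein that organizes mossy fibre synapses, Dsp (desmoplakin) anchors intermediate filaments at cell junctions, and Trpc6 is a cation channel opened by diacylglycerol. Stxbp6 (amisyn) binds SNARE proteins of vesicle fusion, and Dock10 is a guanine nucleotide exchange factor that acts in dendritic spines. Lct (lactase) and Tdo2 (tryptophan dioxygenase, which opens the kynurenine pathway) are enzymes best known from gut and liver that serve as granule neuron markers in the brain.

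The promoters of these genes are of unlike kinds. The sequences below are the 250 bases before the RefSeq transcription start (build GRCm38.p6, 5′ to 3′ on the gene's strand). They are shown for Prox1, the transcription factor of the set, and for the genes with the largest falls in R6/1. They lie at chr1:190170828-190171077 (minus strand), chr13:38151044-38151293 (plus), chr1:120340332-120340581 (plus) and chr1:128328319-128328568 (minus). Capitals mark matches, on either strand, to any of the motifs searched.
Prox1: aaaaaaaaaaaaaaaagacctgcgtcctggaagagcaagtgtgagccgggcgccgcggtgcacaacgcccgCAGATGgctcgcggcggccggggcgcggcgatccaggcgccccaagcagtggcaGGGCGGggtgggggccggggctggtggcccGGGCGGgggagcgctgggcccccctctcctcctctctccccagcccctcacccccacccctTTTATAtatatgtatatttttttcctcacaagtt
Dsp: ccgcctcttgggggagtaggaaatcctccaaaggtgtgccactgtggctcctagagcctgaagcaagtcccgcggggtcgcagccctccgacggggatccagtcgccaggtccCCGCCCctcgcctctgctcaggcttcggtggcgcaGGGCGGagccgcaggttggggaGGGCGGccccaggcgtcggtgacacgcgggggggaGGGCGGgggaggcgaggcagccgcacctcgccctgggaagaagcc
C1ql2: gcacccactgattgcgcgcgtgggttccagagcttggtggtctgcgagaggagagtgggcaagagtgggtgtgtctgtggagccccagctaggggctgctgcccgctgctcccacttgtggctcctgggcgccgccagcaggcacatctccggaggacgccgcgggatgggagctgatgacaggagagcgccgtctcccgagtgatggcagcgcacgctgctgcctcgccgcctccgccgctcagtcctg
Lct: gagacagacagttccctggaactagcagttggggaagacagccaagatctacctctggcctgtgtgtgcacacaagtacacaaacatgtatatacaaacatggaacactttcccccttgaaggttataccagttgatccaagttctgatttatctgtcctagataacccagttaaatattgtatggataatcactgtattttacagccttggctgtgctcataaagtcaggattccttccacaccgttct
The motifs searched were the E-boxes CAGATG and CAGCTG, the TATA box TATAAA, the GC box GGGCGG, the CCAAT box and the cyclic-AMP half-site TGACGT, none of which overlapped in these windows. The Dsp window holds 4 GC boxes and the Prox1 window 2, together with 1 CAGATG and 1 TATA match. No motif on this list occurs in the C1ql2 or Lct windows. Among the 8 genes, 3 hold a GC box, 2 a CAGATG E-box, 2 a TATA match and 1 a CCAAT match, while 32.9%, 14.5%, 13.0% and 34.5% of 27025 RefSeq promoters of the same length do. Lct had 1 CpG dinucleotide and Tdo2 3, against 12 in Trpc6 and Stxbp6, 20 in Prox1 and C1ql2, 22 in Dsp and 27 in Dock10; the median over all promoters was 6. CpG-poor and CpG-rich promoters thus both occur among the genes that fell most.

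All 8 genes were lower in R6/1 hippocampus. They were chosen with earlier results of these data known, so their counts are not independent evidence beside the shares of all tested genes. With limma fitted to log2(RPKM + 0.5) over 14446 genes averaging 0.5 RPKM or more, 8 of 8 passed an adjusted p of 0.05 as lower in R6/1. The background is wide: 48.3% of all tested genes passed in either direction, 23.5% as lower and 24.8% as higher. With scaling by library totals instead, 2525 genes passed as lower and 5113 as higher, against 3394 and 3586, and the median change of all genes moved from 0.004 to 0.07; 8 of 8 still passed. In 5 of the 8 genes every R6/1 library lay below every WT library, which holds for 6.38% of tested genes, and for 5.5% in the opposite direction. A log2 fold change of -1 or less was found for Dsp, Lct, C1ql2 and Stxbp6; of all tested genes, 0.879% passed the test with a change of that size. The median log2 fold change of the 8 genes was -0.99. Ordered from the largest fall over all tested genes, Dsp stood at position 1, Lct at 4, C1ql2 at 5, Stxbp6 at 65, Trpc6 at 336, Tdo2 at 341, Dock10 at 895 and Prox1 at 1121. In bulk tissue, fewer granule neurons and less of a transcript per neuron cannot be told apart.

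**Figure D1:**
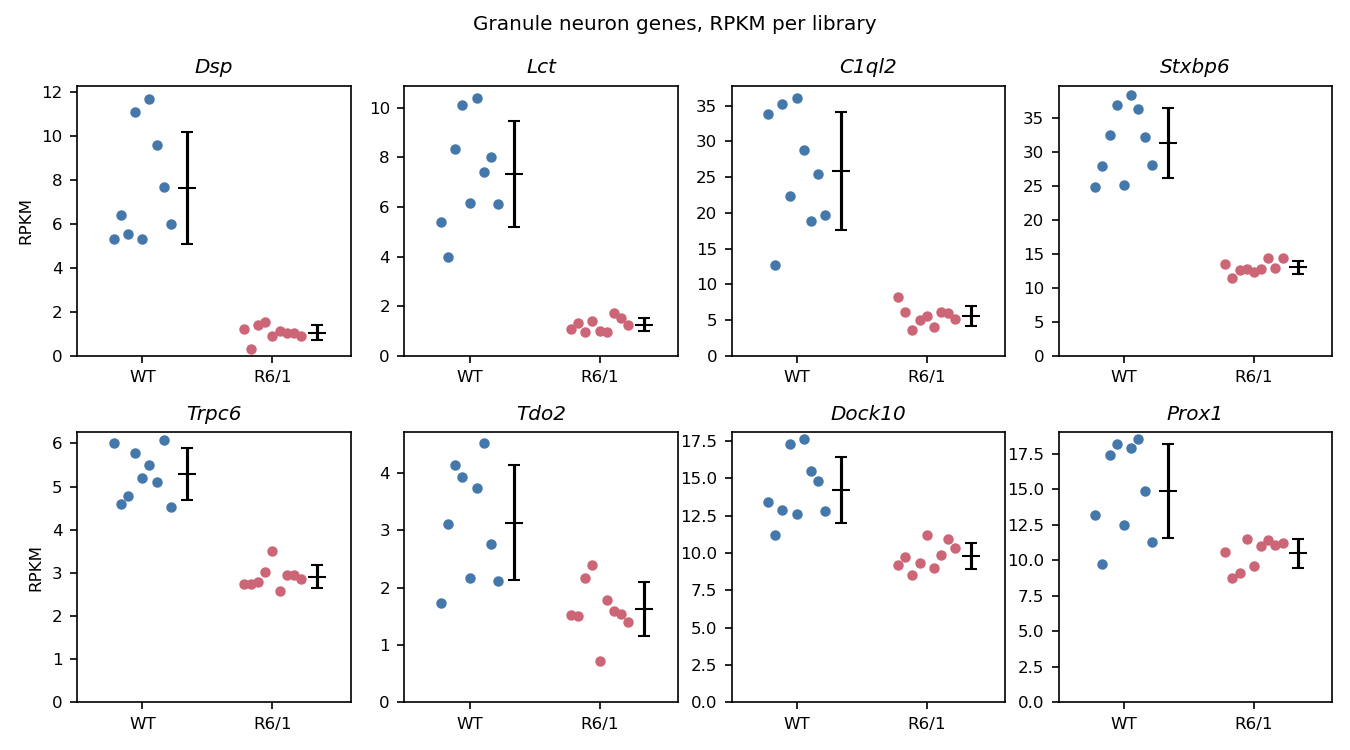
RPKM of each gene (y axis, linear, from 0) in the 9 WT and 9 R6/1 libraries (points), with the mean and SD of each genotype in black beside them. The groups are apart for Dsp, Lct, C1ql2, Stxbp6 and Trpc6 and touch for Tdo2, Dock10 and Prox1.

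Prox1, the transcription factor of the set, had the smallest fitted fall, close to the -0.51 (SE 0.0766) of Dock10. The level of Prox1 ran from 9.73 to 18.5 RPKM in WT, with a median of 14.9. In R6/1 it ran from 8.77 to 11.5 RPKM, with a median of 11.0. The groups overlapped: 3 of 9 R6/1 libraries lay below the lowest WT library, and 7 of 9 WT libraries lay above the highest R6/1 library. The mean moved from 14.8 ± 3.32 to 10.5 ± 1.04 RPKM (SD, n = 9 each), and the fitted log2 change was -0.46 (SE 0.109; adjusted p 0.00162 by limma). On average R6/1 libraries kept 70.6% of the WT level. Prox1 (build NCBIM37, chromosome 1, 191945660 to 191994559, minus strand) overlaps 1 annotated antisense gene; use of strand in the counting is not given in the sources used here. Some interneurons and oligodendrocyte-lineage cells are also known to express Prox1.

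Dsp, the desmosomal linker, had the lowest log2 fold change of all tested genes. WT libraries held 5.32 to 11.7 RPKM, with a median of 6.42, and R6/1 libraries 0.318 to 1.52 RPKM, with a median of 1.05. No library of one genotype reached the range of the other. These levels rest on 629 to 1718 reads per library in WT and 51 to 236 in R6/1. The mean in R6/1 was 13.8% of that in WT, a 7.22-fold lower level, and the fitted log2 fold change was -2.36 (SE 0.174, limma adjusted p 1.55e-09). Dsp (chromosome 13, 38243197 to 38290446, plus strand) also overlaps 1 annotated gene on the opposite strand.

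C1ql2, the mossy fibre synapse organizer, was the second most abundant of the 8 genes in WT and the fourth in R6/1. It spanned 12.7 to 36.1 RPKM in WT, with a median of 25.4, and 3.57 to 8.27 RPKM in R6/1, with a median of 5.62. The lowest WT value came from replicate 2, which still stood above every R6/1 library. The R6/1 mean was 21.5% of the WT mean, and the log2 fold change was -2.08 (SE 0.177, limma adjusted p 1.10e-08). C1ql2 (chromosome 1, 122237159 to 122239748, plus strand) is a short gene of 2 exons with no annotated overlap.

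The enzyme genes fell by different amounts. Lct ran from 3.99 to 10.4 RPKM in WT, with a median of 7.39, and from 0.963 to 1.72 RPKM in R6/1, with a median of 1.24. The genotypes did not overlap, and the log2 fold change was -2.12 (SE 0.143, limma adjusted p 4.21e-10), with an R6/1 mean of 17.1% of WT. Tdo2 ran from 1.73 to 4.51 RPKM in WT, with a median of 3.10, and from 0.722 to 2.39 RPKM in R6/1, with a median of 1.54. Its ranges overlapped, with 6 of 9 R6/1 libraries below the lowest WT library. Tdo2 had the fewest reads of the set, 36 to 116 per library in WT and 17 to 62 in R6/1. Its R6/1 mean was 52.0% of WT, and the fitted log2 change was -0.76 (SE 0.166; limma adjusted p 0.000831). Lct lies on chromosome 1 (130181333 to 130224895, minus strand) and Tdo2 on chromosome 3 (81761012 to 81780124, minus strand).

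Stxbp6, the SNARE-binding gene, was the most abundant of the 8 per kilobase in both genotypes. WT libraries held 24.8 to 38.4 RPKM, with a median of 32.2, and R6/1 libraries 11.5 to 14.4 RPKM, with a median of 12.8. The R6/1 values were tightly grouped and far below the lowest WT library. The log2 fold change was -1.22 (SE 0.079, limma adjusted p 2.43e-10), on 768 to 1032 reads per R6/1 library. Stxbp6 (chromosome 12, 45953475 to 46175480, minus strand) overlaps 1 annotated gene on each strand.

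Trpc6, the channel gene, ran from 4.53 to 6.08 RPKM in WT, with a median of 5.21, and from 2.59 to 3.52 RPKM in R6/1, with a median of 2.87. The ranges were apart and narrow, and the log2 fold change was -0.76 (SE 0.0634, limma adjusted p 8.48e-09). With the pseudocount of 0.5, Trpc6 and Tdo2 thus had the same fitted change to 2 decimals, while the standard error of Tdo2 was the larger. The match depended on that setting, with -0.84 for Trpc6 and -0.89 for Tdo2 at a pseudocount of 0.1. At a pseudocount of 1 the values were -0.68 and -0.64. Dock10, the exchange factor, ran from 11.2 to 17.6 RPKM in WT, with a median of 13.4, and from 8.53 to 11.2 RPKM in R6/1, with a median of 9.70. A single R6/1 library reached into the WT range, since 8 of 9 lay below the lowest WT library, and the log2 fold change was -0.51 (SE 0.0766, limma adjusted p 1.68e-05). Trpc6 lies on chromosome 9 (8544432 to 8680565, plus strand) and Dock10 on chromosome 1 (80497648 to 80755128, minus strand).

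The authors' deposited table of their own DESeq2 comparison also lists all 8 genes as lower. Its log2 fold changes were -2.29 for Lct, -2.24 for Dsp, -1.87 for C1ql2, -1.23 for Stxbp6, -0.84 for Trpc6, -0.80 for Tdo2, -0.53 for Dock10 and -0.48 for Prox1. In the authors' deposited table the largest adjusted p of the 8 was 3.60e-05, for Prox1, and 20.4% of the genes with an adjusted p there passed 0.05 as lower. Lct and not Dsp had the largest fall in the authors' deposited table, so the order of these genes depended on the fit. The standard errors there were 0.142 for Lct and 0.191 for Dsp. By the group means, Dsp stood lower in R6/1, at 13.8% of WT against 17.1% for Lct.

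The order of abundance changed with genotype. In WT, mean levels per kilobase ran from Stxbp6 through C1ql2, Prox1, Dock10, Dsp, Lct and Trpc6 to Tdo2. Each gene overlapped the next in this order over the 9 libraries, except that Trpc6 and Tdo2 did not overlap. In R6/1 the order was Stxbp6, Prox1, Dock10, C1ql2, Trpc6, Tdo2, Lct and Dsp. Here Dock10, C1ql2, Trpc6 and Tdo2 stood apart from each other with no overlap between neighbours, while Tdo2, Lct and Dsp overlapped in turn. Dsp, in the middle of the order in WT, was the least abundant of the 8 in R6/1.

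Whether the genes fell by unequal amounts was tested within libraries, by the log2 ratio of each gene to Prox1, where the depth scaling of a library nearly cancels. Earlier results of these data, among them the 3 largest falls, were known when these ratios were chosen. The direction of the differences is thus not independent evidence. The ratio (log2 of RPKM + 0.1) of Dsp to Prox1 moved from -0.98 ± 0.35 in WT to -3.27 ± 0.50 in R6/1 (SD, n = 9 each), a difference of -2.29 (SE 0.20). The difference was -1.95 for Lct, -1.69 for C1ql2 and -0.78 for Stxbp6 (SE 0.11, 0.20 and 0.07). For these 4 genes all 9 R6/1 ratios lay below all 9 WT ratios (exact permutation test, two-sided, p 4.11e-05, which is the lowest value this design can give; 7.2e-05 after Benjamini-Hochberg adjustment over the 7 ratios).

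Trpc6 also fell more than Prox1, by -0.37 (SE 0.12), with 6 of 9 R6/1 ratios below every WT ratio (exact permutation p 0.00934, adjusted 0.0131). With a pseudocount of 1 in place of 0.1, its adjusted permutation p was 0.0647. The difference for Tdo2 was -0.42 (SE 0.19), with 2 of 9 R6/1 ratios below every WT ratio (exact permutation p 0.0341, adjusted 0.0398). That call was lost on leaving out any of 10 libraries in turn, WT replicates 2, 3, 4, 6 and 7 and R6/1 replicates 1, 5, 7, 8 and 9, where the adjusted exact p lay between 0.0557 and 0.0824. It was also lost at a pseudocount of 0.5 (adjusted exact p 0.0807) or 1 (0.176), and with medians in place of means (0.0909). Dock10 kept its ratio to Prox1 within a difference of -0.06 (SE 0.09), which did not pass (exact permutation p 0.535, adjusted 0.535). Relative to Prox1, then, the members fell into a group that fell much further (Dsp, Lct, C1ql2), an intermediate Stxbp6, and genes closer to Prox1 (Trpc6, Tdo2, Dock10).

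**Figure D2:**
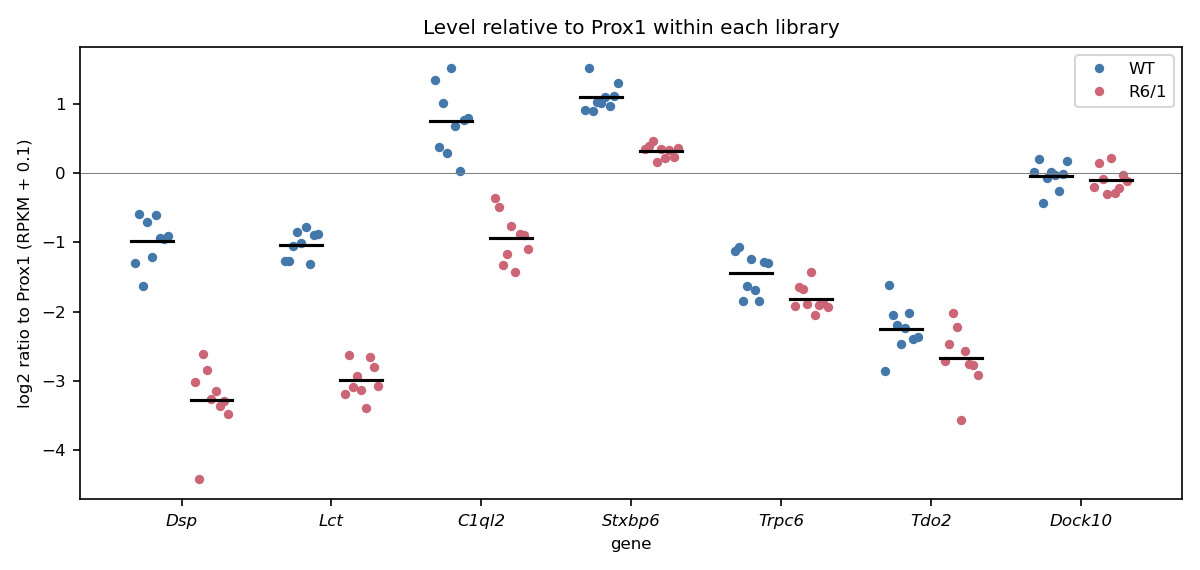
Log2 ratio of each gene to Prox1 within a library (y axis; RPKM + 0.1), for 9 WT (blue) and 9 R6/1 (red) libraries, with the mean of each genotype as a bar. The mean ratio of Dsp moved by -2.29 and that of Dock10 by -0.06.

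The 8 genes varied between WT samples, and most pairs of them were positively correlated there. How often pairs of other genes are so in these libraries was not counted. Their coefficient of variation was 11.2% to 33.4% in WT and 7.27% to 32.7% in R6/1. It was smaller in R6/1 for 8 of 8 genes, as it was for 56.4% of all tested genes. In WT, replicates 4 and 6 held the highest Dsp, Lct, Stxbp6 and Dock10. WT replicate 2 held the lowest Prox1, Lct, C1ql2 and Dock10. Across the 9 WT libraries, 24 of 28 gene pairs had a positive Pearson r of log2(RPKM + 0.1), with a median of 0.58.

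Of the 56 pairs tested in both genotypes, 4 passed an adjusted p of 0.05, all in WT. For Prox1 with Lct, r was 0.89 and rho 0.77 (exact permutation p 0.0015 and 0.0214, adjusted 0.034 and 0.133), and r was 0.81 without the 2 libraries farthest from the median of Prox1. For Dsp with Stxbp6, r was 0.89 and rho 0.88 (exact permutation p 0.00243 and 0.00308, adjusted 0.034 and 0.0842; r 0.80 without the 2 farthest libraries). For Dsp with Dock10, r was 0.88 and rho 0.72 (exact permutation p 0.00206 and 0.0369, adjusted 0.034 and 0.188; r 0.68 without the 2 farthest). For Lct with Dock10, r was 0.88 and rho 0.78 (exact permutation p 0.00202 and 0.0172, adjusted 0.034 and 0.133; r 0.73 without the 2 farthest). By Spearman's rho, 0 of the 56 pairs passed the adjusted exact permutation test, with 10 WT pairs and 1 R6/1 pair at an unadjusted p under 0.05. In WT no pair of C1ql2, Trpc6 or Tdo2 passed. Their r ran from -0.26 (with Dsp) to 0.44 (with Trpc6) for C1ql2, from -0.14 (with Tdo2) to 0.60 (with Dock10) for Trpc6, and from -0.24 (with C1ql2) to 0.87 (with Stxbp6) for Tdo2.

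In R6/1 the median r over the 28 pairs was 0.15, and 20 were positive. The lowest was Tdo2 with Dock10, at an r of -0.78 and a rho of -0.68 (exact permutation p 0.00902 and 0.0503, adjusted 0.0664 and 0.217; r -0.78 without the 2 libraries farthest from the median of Tdo2). With 0 of 28 R6/1 pairs past the adjusted test, 3 pairs had an unadjusted exact p under 0.05. Whether the correlations differ between genotypes was not tested.

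**Figure D3:**
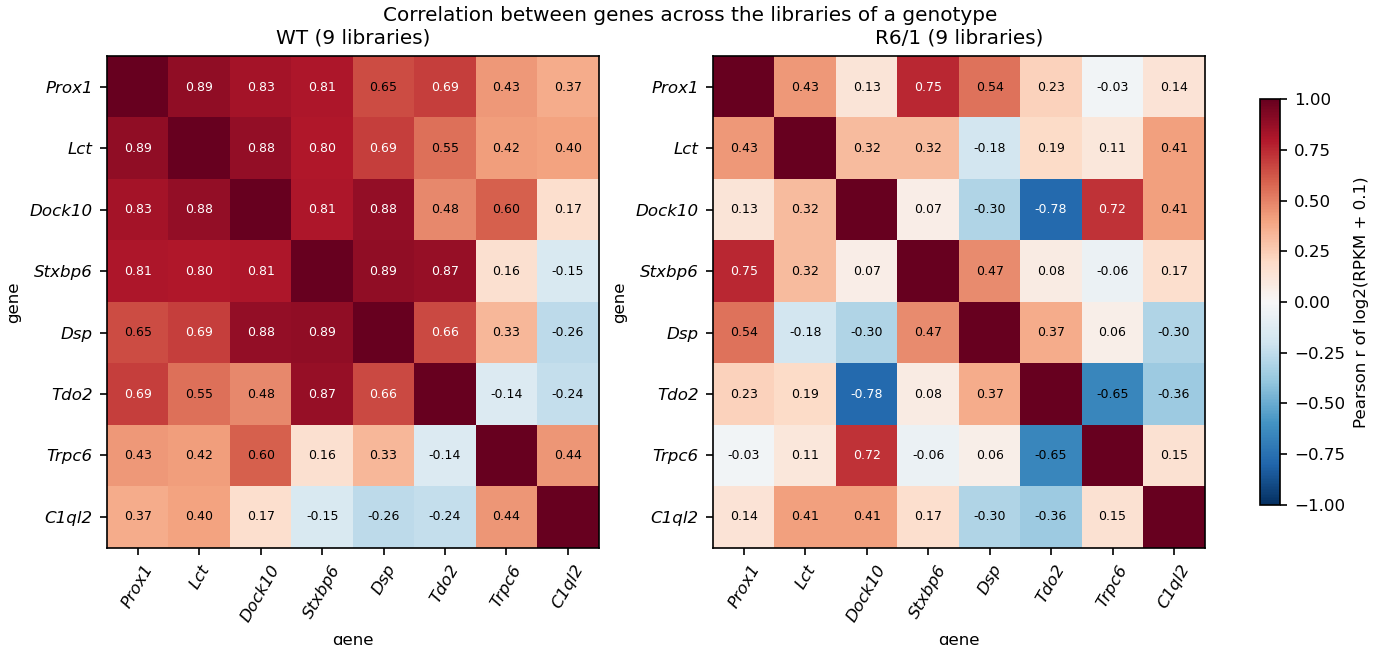
Pearson r of log2(RPKM + 0.1) between each pair of the 8 genes across the 9 WT (left) and the 9 R6/1 (right) libraries, coloured from -1 (blue) to 1 (red). In WT the block of Prox1, Lct, Dock10, Stxbp6 and Dsp is positive throughout, with r from 0.65 to 0.89, while r of C1ql2 runs from -0.26 to 0.44.

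A further 23 genes enriched in granule neurons, listed from general knowledge, were read out from the same fit. Of these, 19 of 23 passed as lower in R6/1 and 0 as higher, with a median log2 fold change of -0.57, beside 23.5% lower and a median of 0.004 over all tested genes. In 7 of the 23, all R6/1 libraries lay below all WT libraries, beside 6.38% of tested genes. The largest falls were those of Igfbp5, a secreted binding protein of insulin-like growth factors, at -1.44 (SE 0.107), and Npnt, a matrix protein that binds integrins, at -0.97 (SE 0.0961). Igfbp5 went from 52.1 ± 6.54 to 19.1 ± 3.94 RPKM and Npnt from 7.27 ± 1.33 to 3.45 ± 0.537 RPKM (SD, n = 9 each). Rfx3, a transcription factor of the RFX family, followed at -0.86, then Sema5a, a guidance protein that limits granule cell synapses, at -0.85, and Smad3, a transducer of TGF-beta signals, at -0.82. By limma, their adjusted p ran from 5.05e-11 (Smad3) to 6.06e-06 (Sema5a).

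The genes at the other end of that list kept levels near those of WT. Neurod1, a bHLH transcription factor of granule neuron differentiation, had a WT mean of 9.18 ± 1.46 RPKM against 8.54 ± 1.08 RPKM in R6/1 (SD, n = 9 each; log2 fold change -0.09, limma adjusted p 0.399). Tspan18 stood at -0.11 (limma adjusted p 0.467). Ablim3, an actin-binding protein, stood at 0.12 (limma adjusted p 0.149) and passed as higher when libraries were scaled to their own totals (0.19, limma adjusted p 0.0237) or without R6/1 replicate 5 (0.16, limma adjusted p 0.0488).

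**Figure D4:**
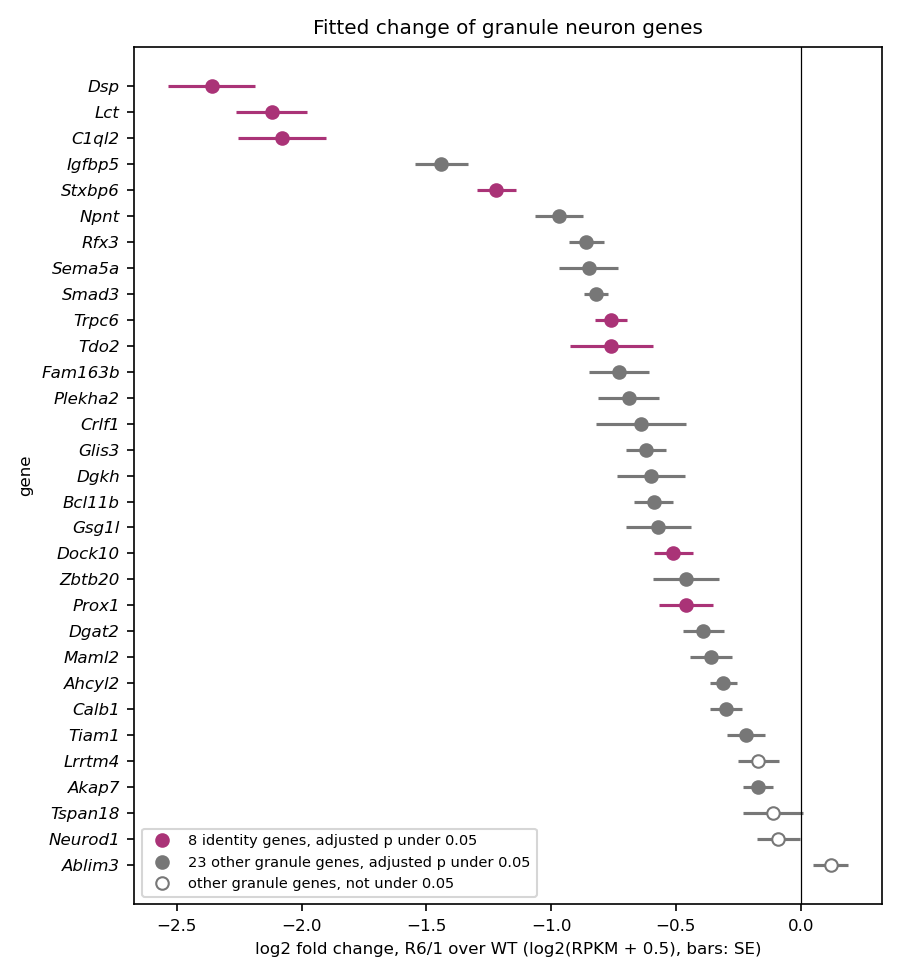
Log2 fold change of R6/1 over WT (x axis, from log2(RPKM + 0.5), bars show the SE) for the 8 identity genes (purple) and 23 other granule neuron genes (grey), with open points where the limma adjusted p was not under 0.05. Dsp, Lct and C1ql2 lie at or below -2.08 and the lowest of the other genes, Igfbp5, at -1.44.

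Markers of other cells were read out beside these genes, from lists also chosen with earlier results of these data known. Each count stands beside the 23.5% of all tested genes that passed as lower and the 24.8% that passed as higher. The largest fall of a first-listed marker was that of Wfs1, an endoplasmic reticulum protein of CA1 pyramidal neurons, from 47.8 to 13.6 RPKM with no overlap (log2 fold change -1.76, limma adjusted p 1.82e-11), which is larger than that of Stxbp6. Of the CA1 list, 4 of 5 genes passed as lower (median -0.42) and 1 of 5 as higher. Lower calls numbered 3 of 4 for CA2 (median -0.74, from -1.54 to -0.15, Amigo2 -0.69). They numbered 3 of 4 for CA3 (median -0.84, from -1.50 to -0.01, Grik4 -0.27). For mossy cells of the dentate hilus they numbered 4 of 4 (median -0.39, Calb2 -0.55). The lowest changes of the CA2 and CA3 lists were thus also larger falls than that of Stxbp6. The pan-neuronal list passed as lower for 6 of 6 genes (median -0.31, Rbfox3 -0.32). The inhibitory neuron list did so for 5 of 6 (median -0.33, from -1.17 to 0.03, Gad1 -0.21). The lowest gene of the CA2, CA3 and inhibitory lists each had no overlap between genotypes. Among glia, 5 of 5 astrocyte genes (median -0.48, Aqp4 -0.70), 4 of 5 oligodendrocyte genes (median -0.28, Mbp -0.54) and 2 of 5 microglia genes (median -0.14, Cx3cr1 -0.45) passed as lower. Leptomeninges had 1 of 4 genes lower (median -0.27, Col1a1 -0.32, limma adjusted p 0.0637), and endothelium 0 of 4 (median -0.16, Cldn5 -0.09, limma adjusted p 0.616). The part of these other cells in the falls of the 8 genes was not tested.

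Of 7 genes of progenitors and immature granule neurons, 2 reached the minimum level and 0 passed (Dcx 0.16, limma adjusted p 0.144; Sox11 0.07, limma adjusted p 0.547). The other 5 were below that level and were not in the limma test. Among these, the proliferation genes Mki67 and Top2a were lower in every R6/1 library than in any WT library. Of tested genes 6.38% were so, a share that leaves out genes this low. Which dividing cells of the hippocampus the reads of Mki67 and Top2a came from was not tested. Mki67 had 30 to 66 reads per library in WT and 8 to 26 in R6/1, and its log2 fold change in the authors' deposited table was -1.28 (adjusted p 1.04e-14). Top2a had 11 to 30 reads in WT and 0 to 6 in R6/1, with -1.70 (adjusted p 6.72e-14) in the authors' deposited table. Eomes, Igfbpl1 and Draxin overlapped between genotypes, with -0.41, 0.05 and -0.10 (adjusted p 0.148, 0.889 and 0.694) in the authors' deposited table.

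Markers of the choroid plexus, an epithelium beside the hippocampus, varied widely between libraries. The summed level of its 5 markers ran from 25.1 to 1065 RPKM in WT (median 121) and from 37.5 to 1729 RPKM in R6/1 (median 390), with 0 of 5 genes called. Of the 8 granule genes in WT, C1ql2 had the largest r with Ttr, the leading marker of this epithelium, at 0.69, with a rho of 0.73 (exact permutation p 0.0427 and 0.0311, adjusted 0.449 and 0.474 over 16 relations; r 0.53 without the 2 libraries farthest from the median of Ttr). In R6/1 the r of C1ql2 with Ttr was -0.30 and rho -0.28 (exact permutation p 0.433 and 0.463, adjusted 0.77 and 0.926; r -0.37 without the 2 farthest). Other genes had larger r with Ttr there. For Stxbp6 it was -0.65 (exact permutation p 0.0562, adjusted 0.449), and 0.01 without the 2 farthest. For Tdo2 it was 0.54 and for Dock10 -0.52 (adjusted exact p 0.592 for each), and 0.87 and -0.66 without the 2 farthest. No relation with Ttr passed after adjustment in either genotype. With log2 Ttr as a covariate, 8 of 8 genes passed as lower and the log2 fold change of C1ql2 was -2.14 (limma adjusted p 9.51e-09).

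The genes whose sample-to-sample pattern was most like that of the 8 were then named, by the correlation with their mean after each genotype's mean was subtracted, over 18 libraries and 13097 genes averaging 1 RPKM or more. After Mir409 (r 0.89), a short gene with only 0 to 13 reads per library, came Plekha2 at 0.82, Cacna1a, Chd4, Neurod1 and Kbtbd11 at 0.81, Btbd3 and Pitpnm2 at 0.80, and Wdr92 and Npnt at 0.79. Of these, Plekha2, Neurod1 and Npnt were on the list of 23 granule neuron genes. These 10 genes differed in how they compared between genotypes. Plekha2 (-0.69), Cacna1a (-0.18), Kbtbd11 (-0.36), Btbd3 (-0.82), Pitpnm2 (-0.76) and Npnt (-0.97) fell in R6/1, with a limma adjusted p of 0.00595 or less. Chd4 (0.12, limma adjusted p 0.00744) and Mir409 (1.58, limma adjusted p 0.000678) rose, and Neurod1 (-0.09, limma adjusted p 0.399) and Wdr92 (0.01, limma adjusted p 0.908) did not pass. Among the 8 themselves this r was highest for Prox1 (0.93) and lowest for C1ql2 (0.30); each is part of the mean it was compared with.

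Lamina-associated domains are large, mostly inactive chromatin blocks at the nuclear edge, and ChIP-seq of lamin B1 locates them. It was made from pools of 5 mice, and the authors deposited 1 domain list per genotype, so domains have no replicate spread and no test. Positions are on build NCBIM37. The transcription starts of Prox1, Dsp, Lct, C1ql2 and Dock10 lay in no domain of either genotype. Their distance to the nearest WT domain was 13.4 Mb for Prox1, 9.53 Mb for Dsp, 8.83 Mb for Dock10, 2.94 Mb for Lct and 1.23 Mb for C1ql2. In R6/1 these distances were 13.3, 9.57, 8.61, 2.98 and 1.31 Mb. The 3 genes with the largest falls thus lay outside domains in both genotypes.

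Tdo2, Trpc6 and Stxbp6 started inside WT domains. Trpc6 lay within a domain of 10.1 Mb in WT (chromosome 9, 3034001 to 13135000) and 9.58 Mb in R6/1 with the same far border. Stxbp6 lay in a WT domain of 27.5 Mb (chromosome 12, 42698001 to 70226000). In R6/1 the domain that held it began at the same base and ended at 51615000, leaving 8.92 Mb. Tdo2 lay in a WT domain of 2.77 Mb (chromosome 3, 79920001 to 82695000) that had no R6/1 domain at the Tdo2 start, and the nearest R6/1 border was 3.08 Mb away. Of the 8 tested genes that start in that WT domain, Tdo2 included, 4 passed as lower and 1 as higher, with a median log2 fold change of -0.19. The WT domain of Trpc6 had 2 of 20 tested genes lower and 8 higher (median 0.06), and that of Stxbp6 had 6 of 50 lower and 17 higher (median 0.08), beside 23.5% lower and 24.8% higher over all tested genes. Of Tdo2, Trpc6 and Stxbp6, only Tdo2 started outside R6/1 domains. A relation between domains and the changes in expression was not tested.

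**Figure D5:**
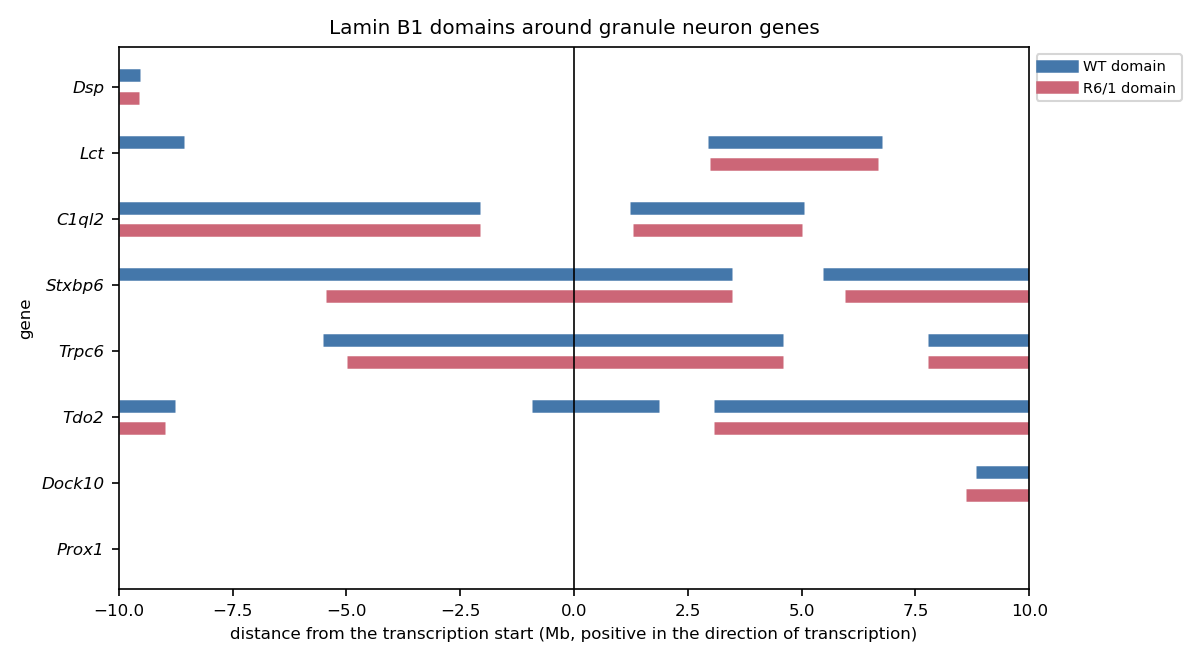
Lamin B1 domains of WT (blue) and R6/1 (red) within 10 Mb of the transcription start of each gene (x axis, distance in Mb, positive in the direction of transcription). Stxbp6 and Trpc6 start inside domains of both genotypes, Tdo2 inside a WT domain alone, and no domain lies within 10 Mb of Prox1.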

How the data were processed

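RNA-seq libraries (stranded, from messenger RNA, per the labels' protocols) of 9 WT and 9 R6/1 hippocampus samples were analysed; ATAC-seq and ChIP reads were not analysed here. The authors deposited RPKM for 24508 genes; TopHat, Bowtie, DESeq2 and build mm9 (NCBIM37) are named in the submitters' processing notes, and the counter and annotation are not given in the sources used here. The authors' deposited comparison table holds a normalized mean signal, log2 fold changes with standard errors, a test score, p-values and adjusted p-values. The deposited lamin B1 domain lists give 1 score per domain, used only to keep the higher-scoring domains of a list in an alternative. Of the RPKM values, 99.87% to 99.91% in a library were whole multiples of 1 read's worth (tolerance 0.05 of a read), which gave 12299434 to 16736544 reads on genes per library; 0 reads allow up to 3, for counting error only.

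The gene test was limma 3.58.1 (R 4.3.3), lmFit and eBayes with trend, two-sided, on log2(RPKM + 0.5), with Benjamini-Hochberg adjustment over all genes averaging 0.5 RPKM or more; fold changes on this scale understate those of low genes. It was tested on simulated data. Ratios and correlations used a pseudocount of 0.1 and exact permutation tests (scipy 1.17.1), over 48620 choices of libraries or 362880 orders. Positions come from GENCODE on NCBIM37 and promoter sequences from RefSeq on GRCm38.p6, 8 of 8 genes matched, the first listed start of each. The 8 genes, the lists and the tests were chosen with earlier results of these data known. Named genes are the 8, the 5 lowest and 3 highest log2 fold changes of the granule list, the first gene of other lists, and the 10 genes most like the 8; the other progenitor genes, the transcription factors, Calb1 and Fam163b were added after their values were seen. Pvrl3, a CA3 marker, had no row under that symbol. Replicate numbers are the same in WT and R6/1, and no label ties a number to a litter or batch.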

Additional observations from a re-analysis of the deposited data

Results flagged for a closer look

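In 2 of 32 groups of 9 libraries examined (the 8 genes and 8 others of the granule list, in each genotype), 1 library at an end of the range was far from the others (Dixon's test); about 1.6 such groups arise by chance. In R6/1 replicate 2, Dsp was at 0.318 RPKM on 51 reads, below the next R6/1 library at 0.912 RPKM, and without that library the log2 fold change was -2.25 (limma adjusted p 1.09e-09), against -2.36 with it. In R6/1 replicate 5, Trpc6 was at 3.52 RPKM on 257 reads, above the next R6/1 library at 3.02 RPKM, and without it the log2 fold change was -0.79 (limma adjusted p 5.26e-09), against -0.76. The same library held the lowest Tdo2 of the series, 0.722 RPKM on 17 reads.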

How the results depend on the processing

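All 8 genes passed as lower under each of 31 alternatives (pseudocounts, filters, scalings, voom, limma without trend, quality weights, the Ttr covariate, the replicate block, leaving out each library, and the authors' deposited table). Over these, the log2 fold change of Dsp ranged from -2.90 to -2.04, that of Tdo2 from -0.94 to -0.64 and that of Prox1 from -0.53 to -0.39, with a highest limma adjusted p of 0.00464 for Prox1. Lower calls on the list of 23 granule genes ranged from 17 to 20; higher calls were 0, except 1 (Ablim3) with libraries scaled to their own totals, and from 0 to 1 on leaving out single libraries. Ratios to Prox1 that differed numbered 6, and 4 to 6 under alternatives. The 4 correlated pairs became 0 by Spearman's rho, and the cause was not tested. Genes starting in a domain numbered 3, and 2 to 3 under other definitions. With the replicate number as a block, 3666 genes were higher and 3467 lower and no call of the 8 genes changed; same-numbered libraries were correlated at -0.05 to 0.24, over 0.1 in 3 of 9 pairs, so the numbers were not taken as pairing.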

Other observations

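Of the 23 further granule neuron genes, 6 encode transcription factors, and 5 of these 6 passed as lower in R6/1, beside 19 of 23 for the whole list and 23.5% of all tested genes. The grouping was made after the values were seen. Beside Rfx3 and Smad3, these were Bcl11b, also known as Ctip2 and shared with CA1 neurons, Zbtb20, a zinc finger repressor needed for hippocampal neuron identity, and Glis3, a Krüppel-like zinc finger factor. Bcl11b averaged 26.3 ± 4.25 RPKM in WT against 17.2 ± 1.32 RPKM in R6/1, with no overlap between genotypes (SD, n = 9 each; log2 fold change -0.59, limma adjusted p 4.30e-06). Glis3 went from 2.53 ± 0.346 to 1.46 ± 0.215 RPKM, also with no overlap (log2 fold change -0.62, limma adjusted p 2.26e-06). Zbtb20 went from 9.79 ± 2.23 to 6.98 ± 1.53 RPKM, with overlapping ranges (log2 fold change -0.46, limma adjusted p 0.00777). The sixth, Neurod1, did not pass.

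Calb1, the calcium buffer calbindin that granule neurons hold in high amounts, went from 34.8 ± 4.16 to 28.1 ± 1.98 RPKM (SD, n = 9 each; log2 fold change -0.30, limma adjusted p 0.00081), and CA1 neurons express it as well. Fam163b had the highest WT mean on the list and ranged over 41.4 to 92.7 RPKM in WT and 37.6 to 44.4 RPKM in R6/1; its fitted log2 change was -0.73 (limma adjusted p 4.25e-05).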
